A study of Homo sapiens with 5 samples.

Results

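Of the SF-1 peaks called with the Perseus antibody after SF-1 overexpression, 760 had an early rank and overlapped no peak of the other lists. They were selected on a rank within the earliest 24.8% of that list and on sharing not a single base with a peak of the other 3 lists. They made up 760 of the 7453 peaks of the list, out of 30372 peaks in all 4 lists. The 1090 peaks within the same rank limit that did overlap another list served as comparators, so that members were 41.1% of the early-ranked peaks. Over the whole list, 62.1% of peaks overlapped no other list. What the ranks are based on is not stated in the sources used here, beyond rank 1 standing first.

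Steroidogenic factor-1 (SF-1, encoded by NR5A1) was mapped by chromatin immunoprecipitation and sequencing in H295R/TR SF-1 cells. This line was derived from H295R, an established human adrenocortical tumour line, and carries an SF-1 transgene switched on by doxycycline. Basal chromatin came from cells without doxycycline, which still express their own SF-1, and overexpressed chromatin from cells given doxycycline for 3 days. Each dosage was precipitated with the Millipore or the Perseus antibody, and the authors deposited 1 peak list from 3 libraries for each of the 4 combinations. The study asked how the sites occupied by SF-1 change with its dosage.

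SF-1 is an orphan nuclear receptor of the adrenal cortex and gonads that binds DNA as a monomer. It recognises the nuclear receptor hexamer AGGTCA when the bases CA or a close variant precede it, and it activates genes of steroid hormone synthesis and cholesterol supply. In childhood adrenocortical tumours its gene is often gained, and more SF-1 increases the proliferation of these cells.

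A single list made from several libraries has no replicate, so no p-value between lists exists. Shares are given with 95% Wilson intervals and differences of shares with 95% Newcombe intervals. These cover counting error over peaks only, and a difference is said to pass when its interval leaves out 0. The depth behind each list is unknown. The SF-1 consensus searched for was NCAAGGNCN on either strand, with C or T as the first and seventh letters and A or G as the last, which allows 8 different words. Its exact core CAAGGTCA contains the hexamer AGGTCA, so these 3 searches overlap. A match to any of them is a run of letters and not a proven site.

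The sequences printed here show what the consensus looked like in members. They are the 6 best-ranked members that hold it, lie outside untranslated regions, span at most 300 bp and contain no unknown base, followed by the member with the consensus near HSD17B3. All are the forward strand of hg19 (GRCh37), with the consensus word in capitals. Each is named after the gene that holds it or, between genes, the nearest protein-coding gene, except for the HSD17B3 site.

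LINGO1 site, chr15:78122751-78123049: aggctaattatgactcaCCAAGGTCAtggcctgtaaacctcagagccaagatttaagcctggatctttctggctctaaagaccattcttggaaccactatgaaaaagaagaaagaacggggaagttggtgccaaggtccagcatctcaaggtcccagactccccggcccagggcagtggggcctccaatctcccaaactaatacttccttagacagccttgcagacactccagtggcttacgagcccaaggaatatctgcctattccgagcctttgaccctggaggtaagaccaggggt
SPESP1 site, chr15:69179901-69180149: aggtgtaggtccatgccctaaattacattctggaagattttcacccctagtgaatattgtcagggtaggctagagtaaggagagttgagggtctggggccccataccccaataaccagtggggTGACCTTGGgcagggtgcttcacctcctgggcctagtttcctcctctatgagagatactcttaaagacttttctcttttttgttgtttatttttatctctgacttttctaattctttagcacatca
DAPK2 site, chr15:64338701-64338949: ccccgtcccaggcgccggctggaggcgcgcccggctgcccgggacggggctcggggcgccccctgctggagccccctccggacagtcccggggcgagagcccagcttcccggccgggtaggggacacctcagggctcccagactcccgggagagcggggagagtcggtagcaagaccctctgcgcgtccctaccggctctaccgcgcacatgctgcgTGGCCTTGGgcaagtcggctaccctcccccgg
IGFBP3 site, chr7:46235701-46235949: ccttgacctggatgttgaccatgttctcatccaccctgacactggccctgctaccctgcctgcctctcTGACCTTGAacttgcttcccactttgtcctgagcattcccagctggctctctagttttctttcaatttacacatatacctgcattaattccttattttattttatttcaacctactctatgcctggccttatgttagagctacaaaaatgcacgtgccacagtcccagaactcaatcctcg
ABCD2 site, chr12:40010351-40010599: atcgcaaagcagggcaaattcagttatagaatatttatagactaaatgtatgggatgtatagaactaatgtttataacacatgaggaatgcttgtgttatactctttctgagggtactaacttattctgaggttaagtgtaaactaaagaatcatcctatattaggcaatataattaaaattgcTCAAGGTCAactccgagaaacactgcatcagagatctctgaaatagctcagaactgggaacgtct
NAA15 site, chr4:140247351-140247549: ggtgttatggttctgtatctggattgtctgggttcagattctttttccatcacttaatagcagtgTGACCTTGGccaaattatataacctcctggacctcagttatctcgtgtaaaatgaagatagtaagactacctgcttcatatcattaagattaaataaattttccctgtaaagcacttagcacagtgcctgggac
HSD17B3 site, chr9:99115301-99115449: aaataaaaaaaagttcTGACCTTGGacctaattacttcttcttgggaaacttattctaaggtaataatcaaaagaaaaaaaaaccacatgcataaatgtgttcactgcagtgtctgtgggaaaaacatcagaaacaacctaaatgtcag

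The LINGO1 site (rank 134) carried the word CCAAGGTCA at bases 18 to 26, next to the start of the peak, and lay 9658 bp upstream of LINGO1, a neuronal receptor component. The SPESP1 site (rank 152) carried the same word on the reverse strand at bases 124 to 132, close to the centre. It lay in an intron of SPESP1, a sperm equatorial protein, 42818 bp upstream of the start of NOX5, a calcium-activated NADPH oxidase. The DAPK2 site (rank 198) held the variant CCAAGGCCA in reverse in an intron of DAPK2, a calmodulin-dependent death kinase. TCAAGGTCA stood in the IGFBP3 site (rank 208) and in the ABCD2 site (rank 224). The former was 274352 bp upstream of IGFBP3, an insulin-like growth factor binding protein, and the latter in an intron of ABCD2, a peroxisomal fatty acid transporter. The NAA15 site (rank 307) lay in an intron of NAA15, a subunit of the N-terminal acetyltransferase, 23745 bp upstream of NDUFC1. GC content in 5 of these 6 examples ran from 34.5% at ABCD2 to 51.2% at LINGO1, and it was 75.9% at the DAPK2 site.

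The consensus was the exception rather than the rule among members. It was present in 13.8% of members (105 of 760, interval 11.5 to 16.4%) and in 26.1% of comparators (285 of 1090, 23.6 to 28.8%). The difference was -12.3 percentage points (-15.8 to -8.68). Both shares exceeded that of windows of equal width placed 5 kb to each side, where 39 of 1519 windows beside members (2.57%) and 2.04% of those beside comparators held it. In the whole list 17.2% of peaks held it. Comparators were wider, with a median of 249 bp against 199 bp. In a fixed window of 150 bp around the centre the shares were 10.7% and 16.6%, a difference of -5.95 points (-9.02 to -2.77).

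The 8 words fall into 3 classes by their ending. Words that end in TCA, the preferred hexamer ending, occurred in 8.68% of members and 12.6% of comparators, a difference of -3.88 points (-6.65 to -1.01). Words ending in CCA occurred in 4.21% and 8.35%, and those ending in CG in 1.18% and 6.51%, a difference of -5.33 points (-7.05 to -3.64). Among single words, CCAAGGCCA was found in 19 members (2.50%) and 60 comparators (5.50%), and CCAAGGCCG in 4 members (0.526%) and 32 comparators (2.94%). The exact core CAAGGTCA was present in 11.1% of members and 14.5% of comparators, a difference of -3.44 points (-6.45 to -0.319), and in 2.57% of the windows beside members. In the fixed window of 150 bp it was present in 7.89% and 9.72%, a difference of -1.83 points (-4.39 to 0.851) that did not pass. These word classes were formed after the values were seen, and the difference between them was not tested.

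Comparators were not a uniform group, and the share with the consensus differed with the lists they overlapped. It was 14.6% (29 of 198, 10.4 to 20.2%) where the only overlap was with the overexpressed Millipore list. It was 19.4% (95 of 490, 16.1 to 23.1%) where it was with the basal Perseus list alone, and 37.7% (120 of 318, 32.6 to 43.2%) where both of these lists had a peak. Of those 318 sites, 84 were in all 3 other lists, and 60.7% of these held the consensus (51 of 84, 50 to 70.5%). Members differed from the first of these classes by -0.831 points (-6.87 to 4.17), which does not pass and leaves room for a gap in either direction. With the sites that the basal Millipore list also held added to that class, the difference was -6.18 points and passed. Against the basal Perseus class the difference was -5.57 points (-9.94 to -1.38), and against the sites in all 3 lists it was -46.9 points (-56.9 to -35.9). The single-list and combined classes were formed after the values were seen.

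**Figure D1:**
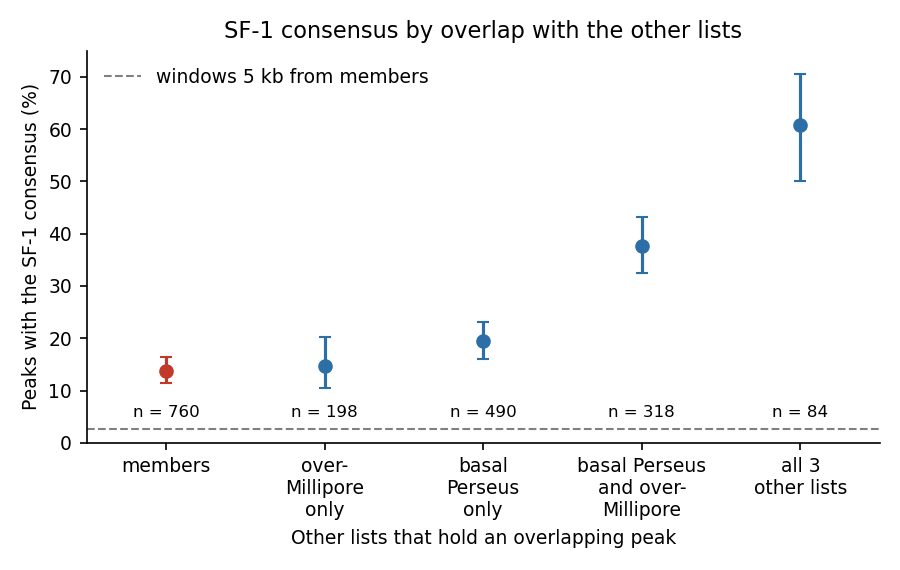
Share of early-ranked peaks that hold the SF-1 consensus (vertical axis, percent, with 95% Wilson intervals) for members and for comparators grouped by the other lists they overlap, where over-Millipore is the overexpressed Millipore list; sites in all 3 lists are also counted in the class to their left. Members at 13.8% lie beside the 14.6% of the class shared with overexpressed Millipore alone and far below the 60.7% of sites in all 3 lists, and above the dashed line at 2.57% for windows 5 kb away.

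The position of the consensus within peaks is given as a description, since even placement was not computed for comparison. In members the nearest copy was a median of 43 bp from the centre, and 62 of the 105 members with the consensus (59.0%) had it within 50 bp. In comparators the median was 55 bp, with 47.0% within 50 bp in peaks that were wider. By distance, 4.74% of members had their nearest copy in the innermost 25 bp. Between 50 and 75 bp it was 2.49% of the members that reached so far, whereas comparators stood at 6.51% and 5.23%. A peak counted for a bin once it extended beyond the inner edge of that bin, so some peaks covered only part of it. Shares of the outer bins are lowered by this. More than 1 copy was found in 7 members and in 38 comparators.

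**Figure D2:**
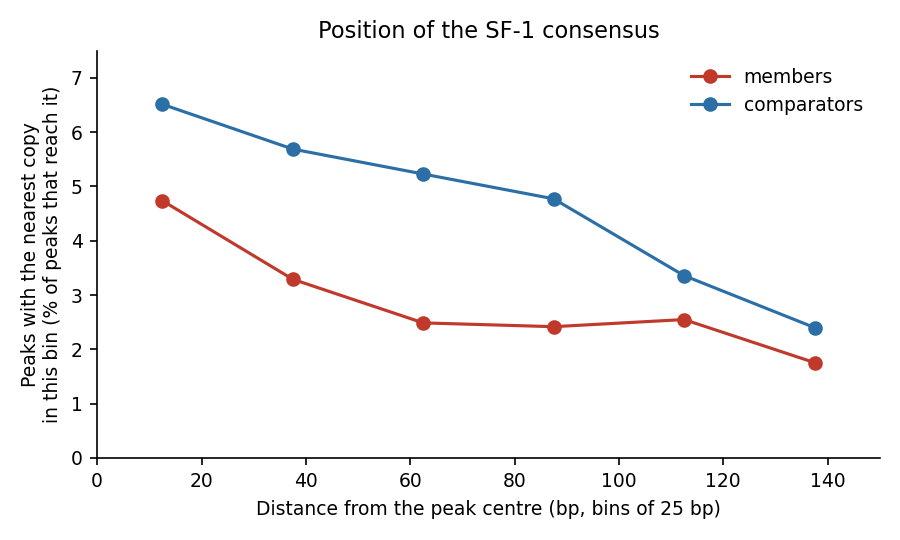
Percentage of peaks whose nearest SF-1 consensus copy falls in each 25 bp bin of distance from the peak centre (horizontal axis, bp), out of the peaks wide enough to cover at least part of that bin, for members and comparators. Members fall from 4.74% in the innermost bin to 2.49% between 50 and 75 bp and lie below comparators in each of the first 6 bins; the points carry counting error that is not drawn.

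Other short words were compared in a panel of 15 on either strand, with the consensus, core and hexamer among them. The interval of the difference left out 0 for 8 of the 15 words in the whole peak, 7 of them less frequent in members and 1 more frequent. With intervals widened for 15 comparisons only the SF-1 consensus passed. The 7 were the SF-1 consensus, the core, the hexamer AGGTCA (22.1% of members, 26.4% of comparators), the NRF1 word GCATGCGC (1.05% and 3.03%), the SP/KLF word GGGGCGGGG (7.37% and 10.9%), the CCAAT box CCAATNN with A or G as its last letter (9.61% and 14.0%) and the E-box CACGTG (3.82% and 6.06%). The windows beside members held the hexamer in 17.2%, the NRF1 word in 0.658%, the SP/KLF word in 0.856%, the CCAAT box in 11.1% and the E-box in 2.37%. Those beside comparators, wider in the median, held these words in 20.9%, 0.601%, 1.16%, 15.8% and 3.65%, in the same order. For the hexamer, CCAAT box and E-box, members were thus lower than comparators in the windows 5 kb away as well. In 150 bp windows 4 words passed, namely the SF-1 consensus and the NRF1, SP/KLF and GATA words.

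The word more frequent in members than in comparators was AGATAA, the sequence read by GATA factors such as GATA4 and GATA6 of the steroidogenic tissues. It was present in 8.82% of members and 6.15% of comparators, a difference of 2.67 points (0.260 to 5.24). In the fixed window the shares were 6.71% and 2.94%, a difference of 3.78 points (1.81 to 5.95) that also passed with the widened interval (0.856 to 7.16). Windows beside members held it more often still, at 12.6% of 1519, and windows beside comparators at 13.8%. Unique peaks of the same list beyond the rank limit held it in 7.83% of whole peaks and 8.58% of 150 bp windows. For unique basal Perseus peaks within the limit the shares were 10.6% and 7.74%, so the word was not particular to members. The part of base composition in the difference from comparators was not tested. Words for NRSF/REST, the silencer of neuronal genes that the study followed up, with up to 4 mismatches were found in 4 members (0.526%) and 5 comparators (0.459%), and the CTCF-type word in 5 and 11. The AP-1 word TGANTCA was in 4.74% and 4.31%, and the ETS word CCGGAAGT in 1.58% and 2.57%. The YY1 word AAGATGGC (7 and 21 peaks) and the CRE TGACGTCA (8 and 15) were rare in both groups. The ZBTB33 word TCTCGCGA was in 5 comparators and in 0 of 760 members, which allows a share of up to 0.395%. In the windows beside members, NRSF/REST words stood at 0.0658% (1 of 1519), AP-1 at 6.12% and ETS at 0.461%. YY1 stood there at 0.988%, CRE at 0.132% and the CTCF-type and ZBTB33 words at 0 of 1519. Windows beside comparators held NRSF/REST words in 0.37%, near the 0.459% of comparators themselves, and the CTCF-type word in 0.139%. An excess of NRSF/REST words in members over their surroundings is therefore not read from these counts. None of the differences between members and comparators in these 7 words passed.

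A member with the GATA word and another with the SP/KLF word are shown because these words differed in how often they occurred near coding starts. Each is the best-ranked member with that word among those of at most 300 bp that lack the SF-1 consensus, contain no unknown base and lie away from untranslated regions and long assembly gaps. The word is in capitals on the forward strand of hg19.

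LRR1 site, chr14:49580901-49580999: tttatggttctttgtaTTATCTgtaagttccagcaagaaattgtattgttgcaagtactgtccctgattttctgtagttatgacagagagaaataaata
ZNF367 site, chr9:99181551-99181849: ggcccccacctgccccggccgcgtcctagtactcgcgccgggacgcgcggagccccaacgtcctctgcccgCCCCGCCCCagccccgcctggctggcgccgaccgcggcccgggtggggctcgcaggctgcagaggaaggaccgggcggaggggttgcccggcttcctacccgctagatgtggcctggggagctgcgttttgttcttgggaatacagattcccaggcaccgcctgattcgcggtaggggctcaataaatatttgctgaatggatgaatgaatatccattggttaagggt

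The LRR1 site (rank 182) was intergenic, 484529 bp from the nearest coding start, with 31.3% GC. The ZNF367 site (rank 299) lay 1048 bp upstream of ZNF367, a zinc finger gene, with 66.2% GC. Both lay beyond 1 kb of a coding start. Within 1 kb of a coding start 14.4% of members held the SP/KLF word and 2.18% the GATA word. Elsewhere the order was reversed, with 4.33% and 11.7%.

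The SF-1 consensus was also unevenly placed. Of the 229 members within 1 kb of the transcription start of a protein-coding gene, 15 held it (6.55%, 4.01 to 10.5%), against 90 of the 531 other members (16.9%, 14.0 to 20.4%). The difference between promoter and other members was -10.4 points (-14.7 to -5.45). Among all 35116 promoter windows of 300 bp in the RefSeq promoter table (GRCh38.p14), 2.55% held the consensus. These windows differ from promoter members in width, genome build and gene set, so the shares are not matched. Promoter comparators held it in 22.2% (83 of 374), and members minus comparators came to -15.6 points at promoters (-20.8 to -10.1) and -11.3 points elsewhere (-15.8 to -6.59). The core CAAGGTCA divided in the same way, with 3.06% of promoter members and 14.5% of the others. The ETS, NRF1 and CRE words were more frequent at promoter members, with 9, 7 and 7 of 229 against 3, 1 and 1 of 531.

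Promoters were nevertheless frequent among members, as they were among comparators. Of the 760 members, 30.1% (27.0 to 33.5%) lay within 1 kb of a coding start, 47.5% within 10 kb, and 18.6% beyond 100 kb. Comparators stood at 34.3%, 51.7% and 20.1%, and the whole list at 26.55%, 42.5% and 22.7%. Of the 5 distance classes plotted, only the one between 50 and 100 kb passed, with 10.8% of members and 7.43% of comparators, a difference of 3.36 points (0.717 to 6.15). Unique peaks of the same list beyond the rank limit stood at 11.86% in that class, and unique basal Perseus peaks within the limit at 11.02%. The difference within 1 kb was -4.18 points (-8.44 to 0.164) and did not pass, and its direction depended on the comparison: within bands of equal peak width, an analysis added after seeing the data, it was 0.0645 points (-4.39 to 4.52), and within bands of equal GC content 1.41 points (-2.28 to 5.10). Of the 229 promoter members, 159 had their centre at or downstream of the start, a median of 306 bp into the gene, and 70 upstream.

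**Figure D3:**
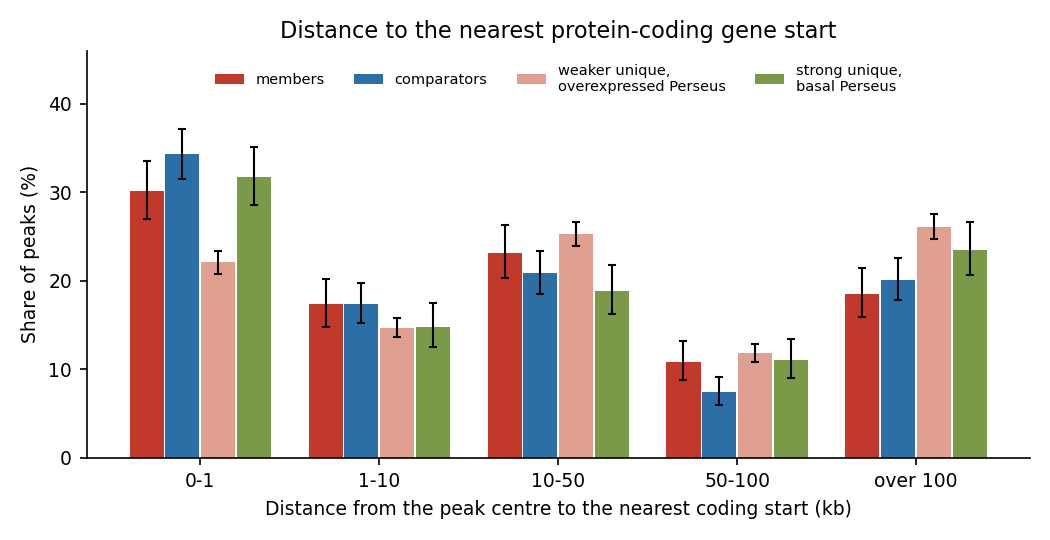
Distance from the peak centre to the nearest protein-coding gene start (horizontal axis, kb, 5 classes) and share of peaks (vertical axis, percent, bars with 95% Wilson intervals) for members, comparators, later-ranked unique peaks of the overexpressed Perseus list and unique peaks of the basal Perseus list within the same rank limit. Within 1 kb lie 30.1% of members, 34.3% of comparators and 22.1% of the later-ranked unique peaks, and between 50 and 100 kb 10.8% of members and 7.43% of comparators.

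By annotation at the peak centre, 38.9% of members fell in introns of coding genes, 9.47% in introns of noncoding genes, 6.05% in coding exons, 13.9% in untranslated regions, 6.32% in noncoding exons and 25.3% between genes. Introns of coding genes were more frequent than in comparators (32.3%), by 6.65 points (2.22 to 11.1), and introns of noncoding genes by 3.14 points (0.670 to 5.78). The other 4 classes differed by less than their intervals. In the whole list the shares in introns of coding and noncoding genes were 39.2% and 8.79%, and in its later-ranked unique peaks 41.75% and 9.56%. Members were thus close to the list as a whole in these 2 classes, and comparators were lower. A further 6.58% of members lay within 1 kb of the start of a long noncoding RNA gene and of no coding gene, against 7.89% of comparators.

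The base composition of members covered a wide range. GC content over the known bases of the peak had a median of 58.3% in members and 63.3% in comparators. It was under 30% in 12 members and 5 comparators, and above 70% in 173 members and 266 comparators. A CpG-rich surrounding (500 bp with GC of 50% or more and at least 0.6 of the expected CpG) was present for 42.8% of members (39.3 to 46.3%) and 47.9% of comparators, a difference of -5.13 points (-9.70 to -0.513). Within bands of equal peak width, added after seeing the data, this difference turned to 1.46 points (-3.21 to 6.12). In members the consensus was rarer in these surroundings, with 18 of 325 CpG-rich members (5.54%) against 87 of the 435 others (20.0%).

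The ranks and widths used by the rule, or tied to it, are given here as a description only. Only 20 of the first 185 peaks were members, and 110 of the 185 peaks from rank 1666 to the limit. The median rank was 1130 in members and 744 in comparators. Over 3 successive bands of equal rank span, from the earliest to the latest, the SF-1 consensus was present in 16.3%, 14.9% and 11.7% of members and in 25.1%, 24.5% and 29.8% of comparators, and the interval of the difference left out 0 in each of these 3 bands. Members had a median width of 199 bp and comparators one of 249 bp. Just inside the threshold lay members at ranks 1846 (in an untranslated region of ADORA2A, an adenosine receptor), 1847 (in an intron of VDAC1, a mitochondrial channel) and 1849 (180 bp from the start of RAD17, a checkpoint gene). Just outside, at ranks 1852, 1853 and 1854, unique peaks lay in B4GALNT3, in an antisense gene of NECTIN3 and in FGF14.

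**Figure D4:**
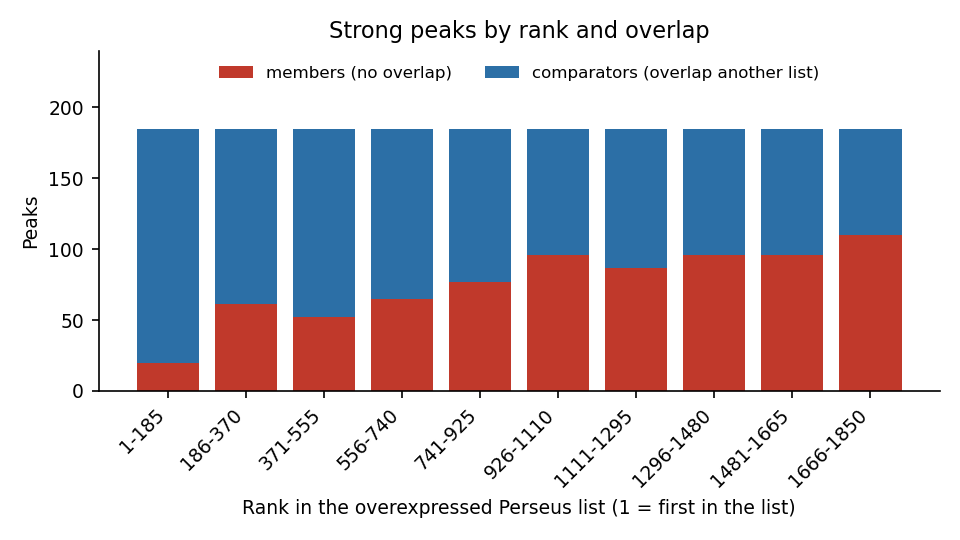
Number of peaks (vertical axis) in 10 successive bins of 185 ranks of the overexpressed Perseus list (horizontal axis), divided into members and comparators. Members rise from 20 in the first bin to 110 in the last.

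The absence of overlap did not always mean a site far from other peaks. Of the members, 25 had a peak of another list within 100 bp of their edge, 104 within 500 bp and 324 within 10 kb, and the median distance was 14577 bp. By list, 58 had an overexpressed Millipore peak and 61 a basal Perseus peak within 500 bp, and only 4 a basal Millipore peak. The 104 members within 500 bp of another list lay at promoters more often than the other 656, with 44.2% against 27.9% (difference 16.3 points, 6.50 to 26.5), and in CpG-rich surroundings in 61.5% against 39.8% (21.8 points, 11.4 to 31.3). They held the SF-1 consensus in 9.62% against 14.5%, a difference of -4.87 points (-10.1 to 2.74) that did not pass. Deposited starts fall on a grid of 50 bp and ends fall 1 bp short of it. Of the members, 15 were within 2 bp of a peak of another list, so that the peaks lay in adjoining grid steps. With ends moved onto the grid these peaks would touch and still share no base.

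The 10 best-ranked members included 3 close to long runs of unknown bases in the genome sequence, where copies of a repeat that the assembly lacks can pile up on the nearest copy it holds. Whether this happened at these 3 members was not tested. The best-ranked of all, at rank 6 on chromosome 18 (18510701 to 18510949), consisted of unknown bases at 198 of its 249 positions. The others were at rank 41 on chromosome X (61843451 to 61843749) and at rank 88 on chromosome 14 (19012651 to 19012799). In all, 24 members (3.16%, 2.13 to 4.66%) had a stretch of at least 1 Mb without known sequence at a distance of 1 Mb or less. In comparators the share was 10% (109 of 1090), a difference of -6.84 points (-9.02 to -4.62). Of these comparators, 96 were among the 490 that overlapped only the basal Perseus list, and 1 was among the 198 that overlapped only the overexpressed Millipore list. The 3 best-ranked comparators, at ranks 1, 2 and 3 on chromosomes 10, 8 and 11, lay far from any coding start, and the first 2 of them beside such runs. Without all peaks near such runs the difference in the SF-1 consensus was -14.9 points (-18.7 to -11.1).

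The other 7 best-ranked members lay in or near genes of varied function. The peak at rank 74 covered a coding exon of POLM, a DNA polymerase of end joining, on chromosome 7 (44119151 to 44119399), and a basal Perseus peak of rank 78 stood 2352 bp away. The peak at rank 77 lay in an intron of PPP2R5E, a regulatory subunit of protein phosphatase 2A, 695 bp from its start on chromosome 14 (64009201 to 64009599), and held both the SF-1 consensus and the SP/KLF word. An intronic peak of 649 bp at rank 87 lay 126 bp from the start of TRAF1, an adaptor of tumour necrosis factor receptors, on chromosome 9 (123691001 to 123691649). DCAF10, a substrate receptor of a cullin ubiquitin ligase, had the peak at rank 104 in an intron, on chromosome 9 (37801251 to 37801649). There an overexpressed Millipore peak came within 102 bp and a basal Perseus peak within 152 bp.

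ZNF786, a zinc finger gene, had a peak in its untranslated region at rank 122 on chromosome 7 (148787701 to 148787949). HS3ST1, a heparan sulfate sulfotransferase, had an intronic peak at rank 125 on chromosome 4 (11430351 to 11430849). The peak at rank 128 lay 6655 bp upstream of THBS2, a matrix glycoprotein of the thrombospondin family, on chromosome 6 (169660651 to 169660949), and held AGGTCA but no SF-1 consensus. Of these 7 members only the one in PPP2R5E held the consensus. GC content ranged from 62.2% at THBS2 to 77.1% at ZNF786.

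The next promoter members by rank lay 79 bp upstream of ARPC4, an actin nucleation subunit, in an untranslated region of TADA3 (rank 139), at BRD3, a bromodomain protein (162), at ARIH1, a ubiquitin ligase (176), and at FSCN1, an actin bundler (181). USP8, a deubiquitinase (192), NCKAP5L, a centrosomal protein (197), and MFN2, a mitochondrial fusion protein (220), followed. Their distances from the start were between 79 and 858 bp. None of these 7 members held the SF-1 consensus, although the one at NCKAP5L held the core CAAGGTCA. An overexpressed Millipore peak stood 202 bp from the member at ARIH1 and 402 bp from the member at NCKAP5L, whereas at USP8 the nearest was 69452 bp away. Among the 8 best-ranked members with the consensus, the remaining one was a peak of rank 270 in a coding exon of BSN, a presynaptic scaffold, with 2 copies.

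Among genes of steroid synthesis, a member lay within 100 kb of the start of 2 of the 24 listed (8.33%), and a comparator near 2. Over all 20163 protein-coding genes the shares were 9.72% with a member so near and 14.1% with a comparator, so the count for members was close to the background. Within 10 kb the count was 0 of 24, beside 2.27% of all coding genes, and at that share a list of this size need not hold any. For HSD17B3, which makes testosterone in the testis, the member shown above (rank 1435, chromosome 9, 99115301 to 99115449) lay 50917 bp upstream, in an intron of SLC35D2, a nucleotide sugar transporter, and 1035 bp upstream of a coding gene model without a symbol. It was the only member near the genes of the 5 lists of steroid, cholesterol, transcription factor, cAMP and tumour genes that held the SF-1 consensus. For POR, the electron donor of the steroidogenic P450 enzymes, the member of rank 1463 lay 95107 bp downstream of the start, in an intron of TMEM120A. A comparator of rank 102 with the consensus lay nearer, at 86482 bp. CYP11A1, which makes the first cut in cholesterol, had comparators at ranks 395 and 917 and no member.

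Cholesterol genes had a member near 7 of 29, or 24.1%, beside the 9.72% of all coding genes, and a comparator near 5 (17.2%), beside 14.1%. A peak of any rank of the list lay near 23 of the 29, beside 10332 of all 20163 coding genes. LSS, the lanosterol synthase, had 3, at rank 645 in its own intron (763 bp from the start), at rank 1100 (562 bp upstream) and at rank 1160 (57562 bp upstream, at the start of YBEY). A comparator of rank 1509 lay between the first pair, 238 bp from the start, and overexpressed Millipore peaks came within 202 and 602 bp of these members. CYP51A1, the next enzyme of the pathway, had a member of rank 1715 in its intron, 842 bp from the start. The remaining members were distant: at INSIG1, which retains the sterol sensor (rank 1353, 53514 bp), at FDPS, the farnesyl diphosphate synthase (rank 1117, 75889 bp upstream), and at LIPE, the hormone-sensitive lipase (rank 1810, 20260 bp upstream). At NR1H2, an oxysterol receptor, they had ranks 765 and 1225, and the first of these lay 111 bp upstream of POLD1. At the cholesterol exporter ABCA1, the member of rank 947 lay 63589 bp upstream, in the grid step next to an overexpressed Millipore peak (2 bp). Only LSS and CYP51A1 had a member within 10 kb of their start, which is 2 of the 29 genes, beside 2.27% of all coding genes. With 29 genes, such counts are a description.

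In the ACTH and cAMP list 5 of 25 genes (20%) had a member within 100 kb, beside 9.72% of all coding genes, and 4 (16%) had a comparator, beside 14.1%. Within 10 kb of the outermost start 2 of the 25 had a member, beside 2.27%. PDE8A, a cAMP phosphodiesterase of adrenocortical cells, had 3, at rank 479 in its intron (954 bp), at rank 1787 in its untranslated region (204 bp) and at rank 1156 (32921 bp upstream). The nearest overexpressed Millipore and basal Perseus peaks to each were over 70 kb away. GNAS, the gene of the stimulatory G protein subunit, had a member of rank 1838 placed 173 bp upstream of its outermost start, in an exon of GNAS-AS1. Distances from other starts of GNAS are not given here, so the member is not placed at the promoter of the subunit. The others were a member of rank 166 at ADCY9, an adenylyl cyclase (67257 bp upstream), one of rank 960 at PRKAR2A (71468 bp upstream, in an intron of ARIH2) and one of rank 1675 in an intron of PRKAR2B (34025 bp). Both PRKAR2 genes encode regulatory subunits of protein kinase A.

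Adrenogonadal transcription factors had a member near 2 of 25 genes. These were NR0B2, a corepressor of nuclear receptors (rank 1781, 79834 bp upstream, in a coding exon of TRNP1), and SIX4, a homeobox gene (rank 1710, 33956 bp upstream, in an intron of MNAT1). Of 22 adrenocortical tumour genes, 1 had a member (4.55%) and 7 a comparator (31.8%). It was CDK4, the cell cycle kinase, with a member of rank 1174 at 16454 bp upstream and a comparator of rank 161 at 3646 bp. The lists of SF-1 cofactors, cell cycle genes and neuronal NRSF/REST targets had a member near 3 of 18 (16.7%), 4 of 34 (11.8%) and 2 of 20 (10%) genes. These shares, the 8% of the transcription factors and the 4.55% and 31.8% of the tumour genes stand beside 9.72% of all coding genes with a member and 14.1% with a comparator. With so few genes a list, none of them is read as a difference. Over all genes, 675 had both a member and a comparator within 100 kb, which is 34.4% of the 1960 genes with a member and 23.7% of the 2850 genes with a comparator.

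Members and comparators were both unevenly spread over the chromosomes. Chromosome 9 alone held 110 members (14.5%) and 161 comparators (14.8%), but 7.28% of the later-ranked unique peaks. It had 0.779 members per Mb, against 0.0822 on chromosome 2. Off chromosome 9 the consensus was present in 14.3% of members, and on it in 10.9%. The shares of members and comparators differed, as members minus comparators, by -3.07 points (-4.73 to -1.37) on chromosome 16, -2.99 points (-5.25 to -0.638) on chromosome 19 and 2.77 points (0.410 to 5.30) on chromosome 3. The interval left out 0 for 7 of the 24 chromosomes, the others being 2, 14, 15 and X, and these were singled out after their values were seen. The part of DNA copy number in these cells was not tested.

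A pair of further groups placed the members within the Perseus data. The 3871 unique peaks of the same list beyond the rank limit held the consensus in 12.3% (11.3 to 13.3%), and members differed from them by 1.54 points (-0.967 to 4.36), which does not pass. They lay within 1 kb of a coding start in 22.1%, less often than members by 8.04 points (4.62 to 11.6 as members minus later-ranked peaks), and in CpG-rich surroundings in 26.6%, lower by 16.2 points (12.4 to 20.0). Their median width was 149 bp.

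The basal Perseus list, made with the same antibody at the lower dosage, had 762 unique peaks within the same rank limit. Of these, 20.3% (17.6 to 23.3%) held the SF-1 consensus, and the difference of members minus these peaks was -6.52 points (-10.3 to -2.75). Words ending in TCA were present in 14.3% of them and 8.68% of members, those ending in CCA in 3.54% and 4.21%, and those ending in CG in 2.76% and 1.18%. The shares within 1 kb of a coding start (31.8%), in CpG-rich surroundings (39.1%) and near assembly gaps (3.54%) differed from those of members by less than their intervals. The 2 lists have different lengths, so that equal ranks are not equal strengths. The dosage and the libraries behind each list cannot be told apart in this comparison.

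**Figure D5:**
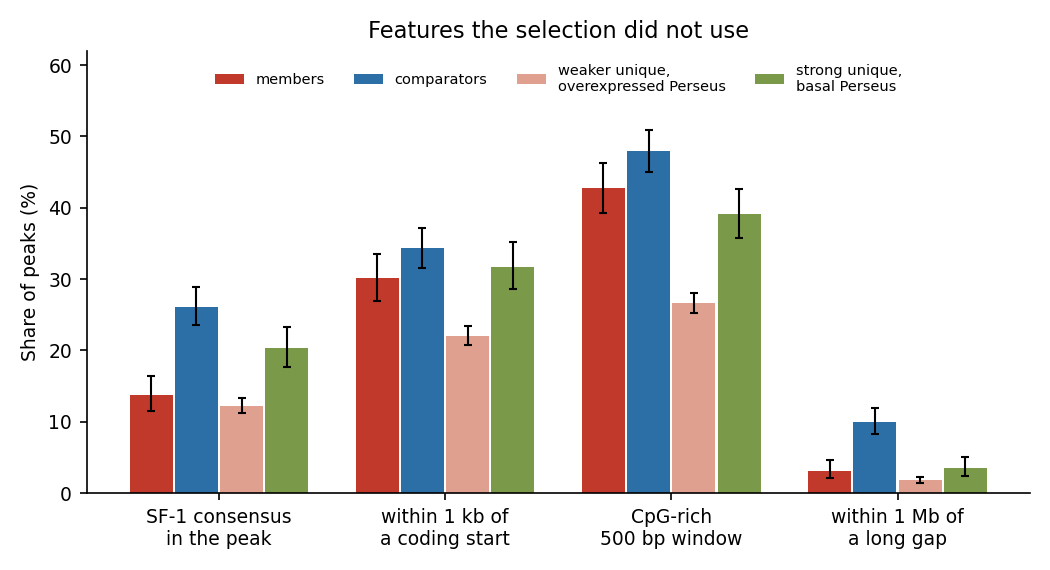
Share of peaks (vertical axis, percent, bars with 95% Wilson intervals) that hold the SF-1 consensus, lie within 1 kb of a coding start, are CpG-rich or have a stretch of at least 1 Mb of unknown sequence at 1 Mb or less, for the 4 groups named in the legend. Members and later-ranked unique peaks are lowest for the consensus (13.8% and 12.3%), and comparators are highest near assembly gaps (10%).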

How the data were processed

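SF-1 occupancy was measured by ChIP-seq. According to their methods, the authors mapped reads to hg19 with ELAND and ran SeqPeak (CisGenome) on the 3 libraries of each condition with input DNA as control. Values for single libraries were not used here. The submitters' processing notes also name CASAVA 1.6. Each deposited list gives position, a rank from 1 and a score; the deposited score is 1000 for every peak and was not used, and the quantity ranked on is not given in the sources used here. The 2 input libraries were not used here. Depth is unknown.

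Members were the peaks of the overexpressed Perseus list with a rank of 1850 or less and no overlap with another list, where overlap meant at least 1 shared bp. Sequence came from GRCh37 (all in capitals, so repeats could not be read from it) and genes from GENCODE version 44 mapped to it. The start of a gene is its outermost one. Distances run from the peak centre, and upstream or downstream follows the strand of the gene. GC and CpG were computed over known bases. Of the comparators, 15.4% overlapped the basal Millipore, 49.4% the overexpressed Millipore and 77.7% the basal Perseus list. Scripts used samtools 1.23.1, pysam 0.24.0 and scipy 1.17.1 under Python 3.11.15 (also matplotlib 3.10.9, pandas 2.3.3 and numpy 2.4.6) and were tested on simulated data.

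Members named are the 10 best-ranked, the 12 best-ranked within 1 kb of a coding start, the 8 best-ranked with the SF-1 consensus, every member within 100 kb of a gene in the first 5 gene lists, and 3 peaks on either side of the rank threshold, with the 3 best-ranked comparators. One listed tumour gene, H19, is not protein-coding and was not matched. The members and lists were chosen with earlier results of these data known. Alternatives covered the overlap, rank, comparators, gaps, windows, GC bands, rank bands and, added after seeing the data, width bands.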

Additional observations from a re-analysis of the deposited data

How the results depend on the processing

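The lower share of the SF-1 consensus in members kept its direction and an interval that left out 0 under the 11 alternatives set for it, from -3.44 points with the exact core to -14.9 points without peaks near long gaps. It did not pass against the 198 comparators shared with overexpressed Millipore alone (-0.831), nor did the exact core in 150 bp windows (-1.83). The difference within 1 kb of a coding start came to pass when a peak within 500 bp counted as shared (-7.28 points), with ranks to 3700 (-6.08), without peaks near gaps (-7.04), with comparators in the basal Perseus list (-6.35) and with all transcript starts (-5.81). It turned positive within 4 GC bands (1.41), within width bands (0.0645) and against comparators in the overexpressed Millipore and not the basal Perseus list (2.40). The CpG-rich difference no longer passed with ranks to 1000 (-4.21) or within 3 rank bands (-4.30), and turned positive within width bands (1.46) and against the overexpressed Millipore comparators (5.95). Against the same comparators the difference near long gaps turned to 2.70 points (0.388 to 4.25). The number of panel words that passed went from 8 to 1 with widened intervals and to 4 in 150 bp windows. The cause of these shifts was not tested. The analysis by repeat content was not run, since the reference sequence does not mark repeats. No paired analysis was possible because each group is 1 list made from 3 libraries. With 1 list per group and no read counts, the spread between cultures, the depth and the strength of a peak in the lists where it was not called were not analysed here.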

Other observations

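On chromosome 15 a stretch around PRC1, a regulator of cytokinesis, held 5 members within 100 kb of its start, at ranks 724, 1299, 1506, 1610 and 1818. They lay at RCCD1 (489 bp from its start, rank 724, with the SF-1 consensus), VPS33B, UNC45A (35 bp upstream, rank 1506, and 2265 bp into the gene, rank 1610) and PRC1 itself (659 bp into the gene, rank 1818). Among the 1960 coding genes with a member within 100 kb, 7 had 5 members, 3 had 4 and 1625 had 1. Of the 7, 6 lie in this stretch and the other is IGLL1 on chromosome 22. They were chosen after their values were seen. Over all members, 183 (24.1%) had another member within 100 kb and 10 (1.32%) within 1 kb.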
